A study of Homo sapiens with 8 samples.

Results

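The UBE2 genes encode ubiquitin-conjugating (E2) enzymes. They were chosen by name: a probe was a member when the transcript accession printed for it on the array belonged to a gene whose symbol starts with UBE2. This gave 54 probes for 33 genes, of which 52 probes for 31 genes could be measured well enough to be kept, out of 11203 named genes with a kept probe. The cells were of the Hodgkin lymphoma line L1236, which is rich in the microRNA miR-155. They were transduced with a retroviral vector that also makes green fluorescent protein, and sorted for that protein. The EV cells received the empty pMSCV-PIG vector and the sponge cells the same vector with a miR-155 sponge. A sponge is an artificial RNA whose repeated binding sites are meant to draw miR-155 away from its natural targets. From each cell population, total RNA (T) and RNA precipitated with an antibody against Argonaute 2 (IP) were hybridised, which makes 4 groups of 1 RNA sample each. Portions of every RNA were labelled separately in Cy3 and in Cy5 and hybridised together with its IP or T counterpart of the other dye, so that 4 arrays gave 8 channels.

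Ubiquitin is passed to proteins in a relay. An E1 enzyme activates it, an E2 enzyme takes it over on a cysteine, and an E3 ligase brings the loaded E2 to the substrate; which E2 is used helps to set which kind of ubiquitin chain is built. Some members of the family carry NEDD8 or ISG15, small proteins related to ubiquitin, in its place. Hodgkin lymphoma cells are known for constant NF-kB activity, a pathway in which ubiquitin chains serve both as scaffolds for kinases and as marks for degradation. Argonaute 2 (Ago2) holds a microRNA and, through it, the transcripts that the microRNA pairs with, so that a transcript bound by Ago2 is relatively abundant in IP. The sponge is directed at the mature miR-155 strand, which is shown here because it is the microRNA that differs in availability by design between the cell populations. In RefSeq (GRCh38.p14) it lies at chr21:25573983-25574006 on the plus strand, and the capitals mark its seed, bases 2 to 8.
hsa-miR-155-5p: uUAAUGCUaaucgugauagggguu
Sites for this seed in UBE2 transcripts were not analysed here, and the mature microRNA has no measurement on these arrays. MIR155HG, the transcript from which miR-155 is cut, was lower in sponge than in EV cells by -0.62 ± 0.12 (log2) in T and by -0.38 ± 0.08 in IP, which does not measure the mature microRNA.

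With 1 RNA sample per group there was no replicate check, and no test was made. A comparison of IP and T across the cell populations would have had 2 pairs and was not tested either. The value ± is the SD over the 2 dye orientations of IP/T (IP in Cy5 with T in Cy3, or IP in Cy3 with T in Cy5), and for a change in T or IP the SD over the 2 dyes; it covers labelling and hybridisation and not the variation between cultures or precipitations. Signals are log2 values after quantile normalisation over the 8 channels, always listed as Cy3 and then Cy5, and they may be compared within a gene but not between genes. IP/T is therefore relative: a value above 0 says that a transcript held a larger place in IP than in T. In bulk RNA, fewer cells with a transcript and less of it per cell cannot be told apart. Of the 6 Hodgkin lymphoma markers 6 were kept, as were 4 of 5 B-cell genes, and MS4A1, CD3D, LYZ, CD163 and EPCAM were well above background in no channel. None of the 4 T cell markers was kept, although CD3E was detected in 8 channels and CD2 and CD8A in 7, while 2 of 4 monocyte and 3 of 4 epithelial markers were kept. Detection was lowest in sponge T labelled with Cy5, where 54.1% of spots were well above background, while the other channels had 61.0% to 65.7%.

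Of the kept UBE2 probes, 51 were well above background in all 8 channels, as was the brightest probe of each of the 31 genes, by which the gene is described. No UBE2 spot was saturated. The reference table lists 36 protein-coding UBE2 genes, of which 31 had a matched probe; UBE2C, UBE2L5, UBE2QL1, UBE2V1 and UBE2V1P16 were not analysed here. The other 2 of the 33 genes are pseudogenes, UBE2NL and UBE2MP1, near copies of UBE2N and UBE2M. Probe sequences were not used here, so signal of a copy and of its parent gene may be shared and their values are uncertain in that respect, as are those of close paralogs such as the UBE2D genes.

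In EV cells the UBE2 family was spread over both sides of the IP/T scale. Of 31 genes, 8 (25.8%) were enriched, with IP/T of at least 2: UBE2W, UBE2N, UBE2NL, UBE2V2, UBE2Q2, UBE2Z, UBE2K and UBE2Q1. Among all 11203 genes 18.1% were enriched. At the other end 6 genes (19.4%) were depleted, with IP/T of 0.5 or less: UBE2MP1, UBE2M, UBE2F, UBE2L3, UBE2O and UBE2J2. Among all genes 18.8% were depleted. These shares lay near the background and say which members were enriched rather than anything about the family. Of the enriched genes 6 were past 2-fold in both orientations, and of the depleted genes 5 were. UBE2K and UBE2Q1 missed 2-fold with IP in Cy5, at log2 IP/T of 0.98 and 0.92, and UBE2O in the same orientation, at -0.93. Just short of enrichment lay UBE2D3 (0.95) and UBE2D4 (0.89), and just short of depletion UBE2D2 (-0.92). The counts of 8 and 6 became 6 and 3 with normexp background correction and quantile normalisation, and 6 and 2 with normexp, loess and Aquantile. Both settings kept 32 UBE2 genes, now with UBE2J1. Among all genes 9.65% and 11% were then enriched and 6.46% and 4.95% depleted.

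**Figure D1:**
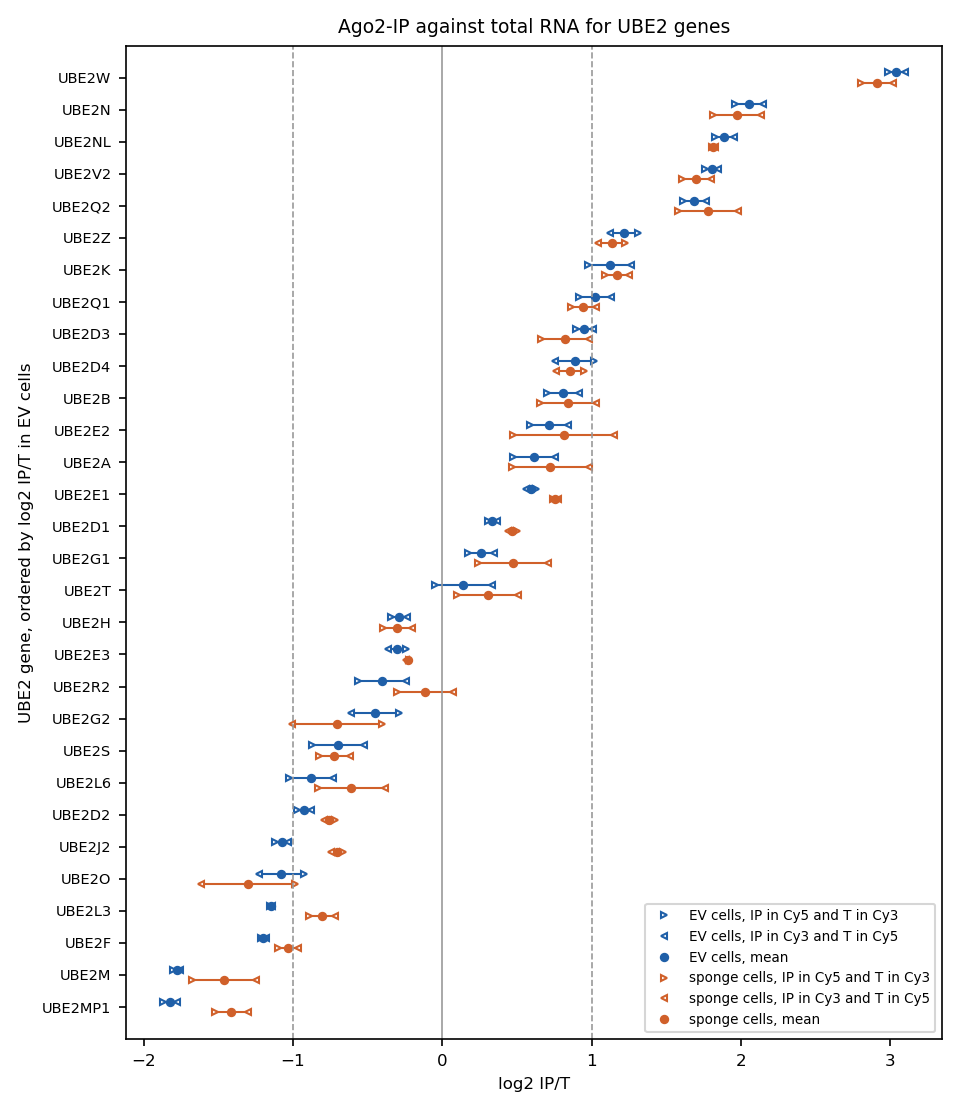
Log2 IP/T of 30 UBE2 genes (horizontal axis) in EV cells (blue) and sponge cells (orange), with genes ordered by the EV value. Triangles are the dye orientations, joined by a line, filled circles their mean, and dashed lines mark 2-fold; UBE2W stands highest at 3.04 in EV cells and UBE2MP1 lowest at -1.82, and each plotted gene keeps its sign between the cell populations.

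The median log2 IP/T of the UBE2 genes was 0.26 ± 0.13 in EV cells, against -0.16 ± 0.03 over all genes, and 0.47 ± 0.19 in sponge cells, against -0.135 ± 0.043. The SD over genes was 1.21 for the family and 1.17 for all genes in EV cells. Few members sat near no enrichment: UBE2T and UBE2G1, 2 of 31 (6.45%), had an IP/T within 1.2-fold of 1 in EV cells, against 18.4% of all genes. IP/T did not follow brightness among the members (r = -0.06 across 31 genes in EV cells; r = 0.07 across all genes). These correlations are across genes measured on the same arrays, which are not independent replicates. The differences between the family and all genes were not tested.

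Of the UBE2 genes grouped by role, UBE2N, UBE2V2 and UBE2NL had the highest median log2 IP/T in EV cells, at 1.89 ± 0.09 over 3 kept genes. Only UBE2N of these has the catalytic cysteine, and UBE2NL may share its signal. UBE2N (also known as UBC13) is the catalytic E2 for the chains linked through a single lysine that act as scaffolds in NF-kB signalling and DNA repair. T of UBE2N was 13.28 and 13.11 in EV cells and 13.30 and 12.93 in sponge cells, whereas IP was 15.26 and 15.24 in EV cells and 15.07 and 15.11 in sponge cells. All IP channels lay above all T channels. Log2 IP/T was 2.06 ± 0.13 in EV and 1.97 ± 0.23 in sponge cells, which is 4.16-fold and 3.92-fold. The other UBE2N probes gave 1.85 and 1.52 in EV cells. UBE2V2 (also known as MMS2) lacks the catalytic cysteine and pairs with UBE2N to direct the linkage. Its T was 10.24 and 10.10 in EV cells and 10.30 and 10.14 in sponge cells, with IP at 11.94 and 12, and 11.94 and 11.90. The groups did not overlap between T and IP, and log2 IP/T was 1.80 ± 0.06 and 1.70 ± 0.14. UBE2NL, the copy of UBE2N that lacks its catalytic cysteine, had T of 10.53 and 10.53 in EV cells and 10.61 and 10.49 in sponge cells, and IP of 12.49 and 12.35, and 12.31 and 12.42. Its log2 IP/T of 1.89 ± 0.09 in EV and 1.81 ± 0.01 in sponge cells differed from those of UBE2N by less than the sum of their SDs, and shared signal between the pair was not tested. UBE2V1, the partner of UBE2N in NF-kB signalling, had no probe matched to it here. A readthrough transcript that joins it to its neighbour, PEDS1-UBE2V1, has 4 kept probes with log2 IP/T between 0.47 and 0.80 in EV cells; it is no member and was looked at after its values were seen.

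UBE2W, which attaches ubiquitin to the amino terminus of its substrates, had the highest IP/T of the family. Its T was 10.38 and 10.20 in EV cells and 10.33 and 10.01 in sponge cells, and its IP was 13.30 and 13.37 in EV cells and 13.03 and 13.13 in sponge cells. Every IP channel lay above every T channel by more than the dyes differed. Log2 IP/T was 3.04 ± 0.08 in EV (8.22-fold) and 2.91 ± 0.15 in sponge cells (7.52-fold). The 3 probes of UBE2W gave 2.71, 3.04 and 3.26 in EV cells, each past 4-fold. UBE2T, listed with UBE2W because both have been linked to the Fanconi anaemia DNA repair pathway, was not enriched. Its T was 14.54 and 14.31 in EV cells and 14.65 and 14.33 in sponge cells, and its IP was 14.64 and 14.48, and 14.83 and 14.75. The T and IP ranges overlapped in EV cells, and log2 IP/T was 0.14 ± 0.27, with opposite signs in the orientations, and 0.30 ± 0.29 in sponge cells.

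Of the remaining enriched genes, UBE2Z, UBE2K, UBE2Q2 and UBE2Q1 lay between 1.02 and 1.69. UBE2Z takes ubiquitin, or the ubiquitin-like FAT10, from the E1 enzyme UBA6 rather than from the main E1. Its T was 13.39 and 13.45 in EV cells and 13.22 and 13.26 in sponge cells, and its IP was 14.57 and 14.70, and 14.30 and 14.45, so that log2 IP/T was 1.22 ± 0.13 and 1.13 ± 0.13 at the brightest probe. Its other probes gave 1.2 and 0.50 in EV cells and 0.94 and 0.55 in sponge cells, so that the call for UBE2Z turns on the probe. UBE2K, which can build degradation-type ubiquitin chains on its own, had T of 14.59 and 14.43 in EV cells and 14.57 and 14.43 in sponge cells, and IP of 15.70 and 15.56, and 15.68 and 15.66. The log2 IP/T ratio was 1.12 ± 0.21 and 1.17 ± 0.11, and the dimmer probe, at 0.83 and 0.87, fell short of 2-fold. The UBE2Q genes encode E2 enzymes with a long amino-terminal extension. UBE2Q2 had T of 8.17 and 8.03 in EV cells and 8.16 and 7.86 in sponge cells, and IP of 9.80 and 9.78, and 9.84 and 9.74, which gave 1.69 ± 0.11 and 1.78 ± 0.28. Its dimmer probe, well above background in 7 of 8 channels, had T of 6.73 and 6.62 in EV cells and 6.47 and 5.49 in sponge cells, and gave 1.52 ± 0.15 and 2.48 ± 0.80. UBE2Q1 had T of 10.70 and 10.67 in EV cells and 10.51 and 10.39 in sponge cells, with IP of 11.79 and 11.62, and 11.42 and 11.37. Log2 IP/T of the gene was 1.02 ± 0.15 in EV and 0.94 ± 0.12 in sponge cells, so that it crossed the 2-fold line between the populations with a change of -0.08 ± 0.03. Its dimmer probe was not past 2-fold, at 0.26 ± 0.38 and 0.44 ± 0.42. UBE2Q1 lay below UBE2Q2 by -0.67 ± 0.04 in EV cells and by -0.83 ± 0.17 in sponge cells. With normexp correction, UBE2Q1 and UBE2Q2 were no longer past 2-fold in EV cells while the other 6 were.

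**Figure D2:**
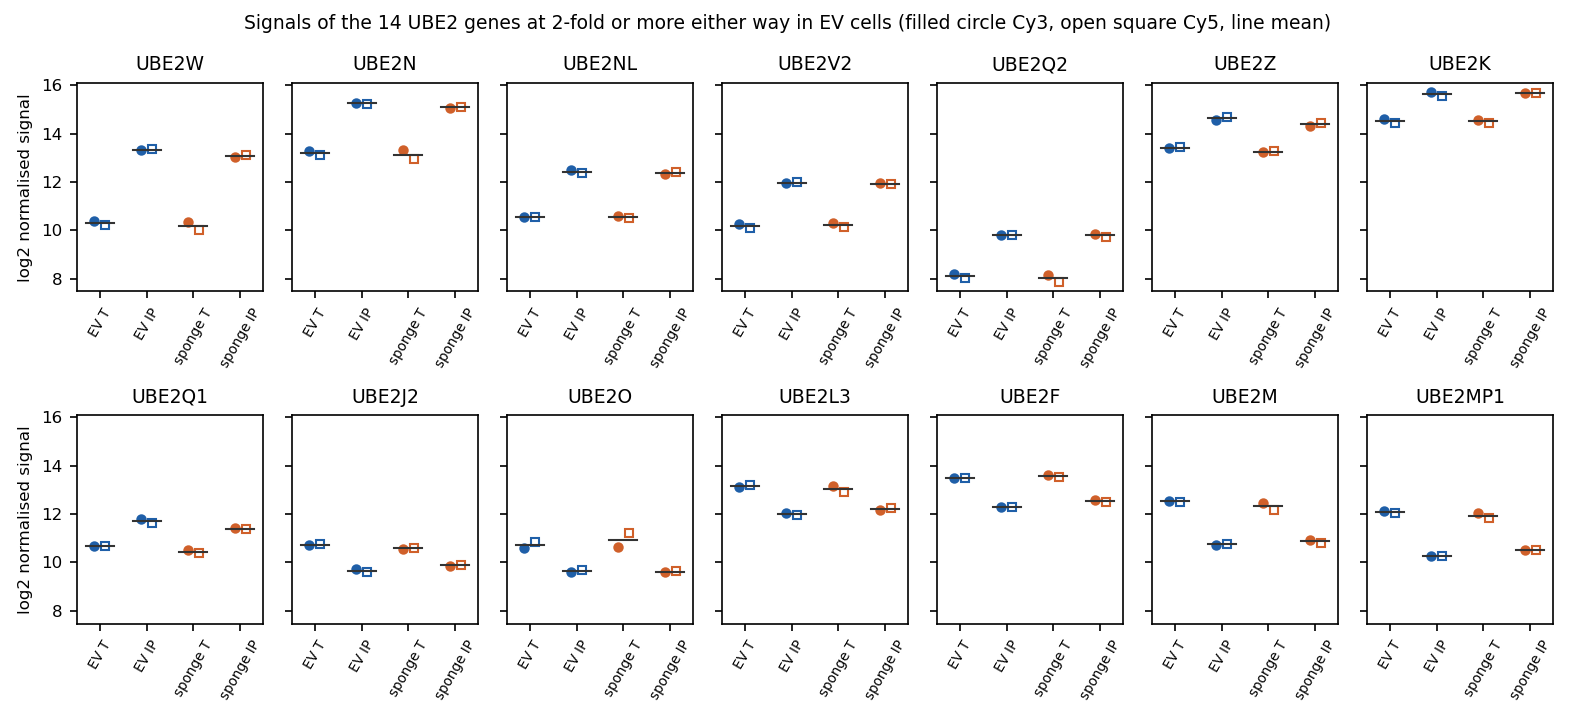
Log2 normalised signal (vertical axis) of the 14 UBE2 genes past 2-fold either way in EV cells, in EV T, EV IP, sponge T and sponge IP; filled circles are Cy3, open squares Cy5 and lines the mean. In the 8 enriched genes, from UBE2W to UBE2Q1, all IP channels lie above all T channels, and in the 6 depleted genes, from UBE2J2 to UBE2MP1, all lie below. The genes were chosen by IP/T in EV cells, so their separation in EV cells is no separate result.

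UBE2MP1, UBE2M and UBE2F had the lowest IP/T in EV cells among the brightest probes of the UBE2 genes, whereas in sponge cells UBE2O lay below UBE2F. NEDD8 is attached to cullins and switches on the cullin-RING ligases, and UBE2M (also known as UBC12) and UBE2F are its E2 enzymes. UBE2M had T of 12.56 and 12.49 in EV cells and 12.48 and 12.19 in sponge cells, and IP of 10.74 and 10.75, and 10.94 and 10.81. All IP channels lay below all T channels, and log2 IP/T was -1.78 ± 0.04 in EV and -1.46 ± 0.30 in sponge cells, which sets T above IP by 3.43-fold and 2.75-fold. The pseudogene UBE2MP1 had T of 12.15 and 12.05 in EV cells and 12.05 and 11.83 in sponge cells, and IP of 10.28 and 10.28, and 10.52 and 10.53. Its log2 IP/T was -1.82 ± 0.07 and -1.41 ± 0.16. With IP in Cy5 and then in Cy3 it was at -1.87 and -1.78 in EV cells, against -1.80 and -1.75 for UBE2M. In sponge cells it was at -1.52 and -1.30, against -1.675 and -1.25, so the orientations differed in which was lower. Shared signal was not tested. UBE2F had T of 13.50 and 13.49 in EV cells and 13.61 and 13.54 in sponge cells, and IP of 12.31 and 12.29, and 12.58 and 12.51, which gave -1.20 ± 0.03 and -1.03 ± 0.10. Its other probe gave -0.99 in EV cells.

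UBE2L6, which carries ISG15, an interferon-induced modifier, had less in IP than in T without reaching 2-fold. Its T was 13.80 and 13.60 in EV cells and 13.56 and 13.34 in sponge cells, and its IP was 12.87 and 12.77, and 12.95 and 12.72. The T and IP channels did not overlap, and log2 IP/T was -0.88 ± 0.21 and -0.61 ± 0.32. Of the E2 genes listed for ubiquitin-like modifiers, UBE2M and UBE2F were thus depleted in EV cells and UBE2Z was enriched.

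UBE2L3 (also known as UBCH7) works with ligases of the HECT and RBR classes, among them the LUBAC complex of NF-kB signalling. Its T was 13.12 and 13.19 in EV cells and 13.15 and 12.91 in sponge cells, and its IP was 12.05 and 11.97, and 12.19 and 12.25. Log2 IP/T was -1.15 ± 0.01 in EV and -0.81 ± 0.12 in sponge cells. Between the paralogs, UBE2L3 lay below UBE2L6 by -0.27 ± 0.20 in EV cells and by -0.20 ± 0.19 in sponge cells, differences close to their SDs. UBE2O, a large protein that combines E2 and E3 functions, had T of 10.61 and 10.84 in EV cells and 10.64 and 11.21 in sponge cells, and IP of 9.61 and 9.68, and 9.60 and 9.66. The dyes were further apart in its T than in its IP, and log2 IP/T was -1.08 ± 0.21 and -1.30 ± 0.45.

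Of the E2 enzymes that serve degradation at the endoplasmic reticulum, UBE2J2 was depleted in EV cells, and UBE2G1 and UBE2G2 were not past 2-fold. UBE2J2 is anchored in that membrane. Its T was 10.72 and 10.76 in EV cells and 10.57 and 10.60 in sponge cells, and its IP was 9.73 and 9.60, and 9.85 and 9.90, with log2 IP/T of -1.08 ± 0.06 and -0.71 ± 0.06. The dimmer UBE2J2 probe, at -0.61 and -0.33, was not past 2-fold. UBE2G2, which works with membrane-bound ligases of this route, had T of 12.93 and 13.18 in EV cells and 12.82 and 13.44 in sponge cells, and IP of 12.57 and 12.64, and 12.43 and 12.42. The log2 IP/T ratio was -0.45 ± 0.23 and -0.70 ± 0.43, and its dimmer probe gave 0.22 and 0.39. UBE2G1, its paralog, had T of 10.93 and 10.84 in EV cells and 10.91 and 10.52 in sponge cells, and IP of 11.19 and 11.10, and 11.23 and 11.14. Log2 IP/T of the gene was 0.26 ± 0.13 and 0.47 ± 0.33. UBE2J1, the other membrane-anchored member, was well above background in 5 of 8 channels and did not pass the limit of 2-fold between dyes. Its T was 7.51 and 5.69 in EV cells and 5.42 and 3.83 in sponge cells, and its IP was 6.27 and 7.42, and 6.00 and 5.83. T of the sponge cells was not well above background in either dye, and T of the EV cells in only 1 of 2, so only bounds are given. EV cells had at least 1.15-fold more of it in T than sponge cells. That bound is uncertain, since it averages in the EV dye that was not well above background. IP of the sponge cells was at least 1.08-fold above their T. UBE2U was well above background in no channel, with signals between 3.04 and 4.24, and no ratio is given for it.

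The UBE2D genes encode near-identical, widely used E2 enzymes, and they differed in IP/T. UBE2D2 had T of 14.82 and 14.77 in EV cells and 14.82 and 14.87 in sponge cells, and IP of 13.89 and 13.85, and 14.08 and 14.10, which gave -0.92 ± 0.07 and -0.76 ± 0.05. UBE2D3 had T of 14.67 and 14.66 in EV cells and 14.86 and 14.57 in sponge cells, and IP of 15.67 and 15.56, and 15.55 and 15.52, which gave 0.95 ± 0.08 and 0.82 ± 0.23. So UBE2D2 was higher in T in every channel and UBE2D3 higher in IP. UBE2D4 had T of 11.24 and 11.34 in EV cells and 11.22 and 11.41 in sponge cells, and IP of 12.10 and 12.25, and 12.17 and 12.17, with log2 IP/T of 0.89 ± 0.18 and 0.85 ± 0.13. UBE2D1 had T of 11.51 and 11.55 in EV cells and 11.40 and 11.63 in sponge cells, and IP of 11.91 and 11.81, and 12.07 and 11.90, with 0.33 ± 0.04 and 0.47 ± 0.04. UBE2D2 lay below UBE2D3 by -1.87 ± 0.01 in EV cells and by -1.58 ± 0.28 in sponge cells, and UBE2D1 above UBE2D2 by 1.26 ± 0.02 and 1.23 ± 0.01. UBE2D3 and UBE2D4 differed by less than the SD, at 0.06 ± 0.26 and -0.03 ± 0.36. These differences depend on the probe. The dimmer UBE2D3 probe gave -0.14 ± 0.03 in EV cells, 1.09 below the brighter one, and the dimmer UBE2D2 probe gave -0.23 ± 0.22.

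In the UBE2E genes, whose products resemble the UBE2D enzymes with an added amino-terminal stretch, UBE2E1 and UBE2E2 lay above 0 and UBE2E3 below. UBE2E1 had T of 8.98 and 9.06 in EV cells and 8.93 and 8.82 in sponge cells, and IP of 9.62 and 9.61, and 9.59 and 9.67. UBE2E2 had T of 9.28 and 9.34 in EV cells and 9.61 and 8.99 in sponge cells, and IP of 10.18 and 9.87, and 10.14 and 10.08. In both genes every IP channel was above every T channel. UBE2E3 had T of 15.07 and 15.08 in EV cells and 14.99 and 14.99 in sponge cells, and IP of 14.72 and 14.83, and 14.75 and 14.77, all below T. Log2 IP/T in EV cells was 0.59 ± 0.05 for UBE2E1, 0.72 ± 0.18 for UBE2E2 and -0.30 ± 0.09 for UBE2E3. UBE2E1 lay above UBE2E3 by 0.90 ± 0.04 in EV cells and by 0.99 ± 0.03 in sponge cells, whereas UBE2E1 and UBE2E2 differed by -0.12 ± 0.23 and -0.06 ± 0.46, less than the SD. Over the 8 general E2 genes (UBE2D, UBE2E and UBE2L3) the median was 0.46 ± 0.01 in EV cells, with none enriched and UBE2L3 depleted.

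UBE2A and UBE2B, the human RAD6 genes, which ubiquitylate histone H2B and the DNA clamp PCNA, both had more in IP than in T. UBE2A had T of 13.63 and 13.43 in EV cells and 13.60 and 13.24 in sponge cells, and IP of 14.18 and 14.11, and 14.22 and 14.07. UBE2B had T of 12.94 and 12.79 in EV cells and 12.91 and 12.64 in sponge cells, and IP of 13.71 and 13.63, and 13.68 and 13.56. In both, every IP channel lay above every T channel. Log2 IP/T in EV cells was 0.61 ± 0.20 for UBE2A and 0.81 ± 0.15 for UBE2B, a difference of -0.19 ± 0.04, and in sponge cells it was 0.72 ± 0.36 and 0.84 ± 0.26, a difference of -0.12 ± 0.10. A dimmer UBE2B probe was at 1.21 in EV cells.

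UBE2S and UBE2R2 serve large RING ligases. UBE2S extends ubiquitin chains on substrates of the anaphase-promoting complex (APC/C). Its T was 16.07 and 15.90 in EV cells and 16.32 and 16.15 in sponge cells, and its IP was 15.37 and 15.20, and 15.53 and 15.49. Log2 IP/T was -0.70 ± 0.25 and -0.72 ± 0.15 at the brightest probe, and the other 2 probes gave -1.06 and -1.34 in EV cells, past 2-fold, so that the call for UBE2S turns on the probe. UBE2R2 works with the SCF ligases, as does its paralog CDC34. Its T was 13.91 and 13.86 in EV cells and 13.69 and 13.67 in sponge cells, and its IP was 13.62 and 13.35, and 13.74 and 13.39, with -0.40 ± 0.22 and -0.11 ± 0.26. UBE2R2 lay below CDC34 by -0.51 ± 0.30 in EV cells and by -0.27 ± 0.37 in sponge cells. UBE2H, the E2 of the CTLH ligase, was at -0.29 ± 0.08 and -0.30 ± 0.14.

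**Figure D3:**
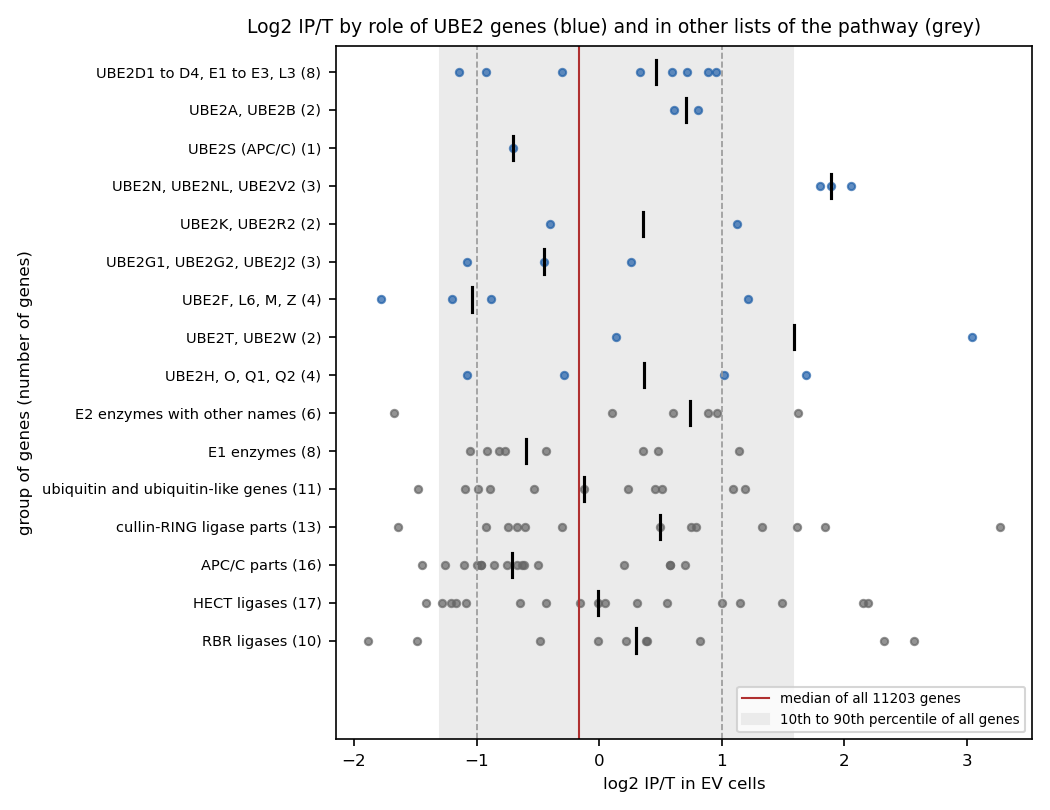
Log2 IP/T in EV cells (horizontal axis) of UBE2 genes by role (blue) and of other genes of the pathway by list (grey); points are genes, black bars medians, the red line the median of all 11203 genes (-0.16), the shaded band their 10th to 90th percentile (-1.30 to 1.58), and dashed lines 2-fold. Of the UBE2 genes, UBE2N, UBE2NL, UBE2V2, UBE2Q2 and UBE2W lie to the right of the band, and UBE2M lies to the left of it.

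Beyond the UBE2 genes, 84 genes of the pathway were listed, of which 81 had a kept probe. Of these, 15 were enriched and 15 depleted in EV cells, against 18.1% and 18.8% of all genes, with a median of -0.12 ± 0.10. The 6 E2 enzymes with other names had a median of 0.74 ± 0.32, with AKTIP, an E2 variant, enriched (1.62 ± 0.17) and UFC1, the E2 for UFM1, depleted (-1.67 ± 0.13). The 8 kept E1 genes had a median of -0.60 ± 0.37, with ATG7, the E1 of autophagy, enriched (1.14) and UBA1, the main ubiquitin E1, depleted (-1.06). NEDD8 itself was at -0.99, short of 2-fold, whereas UBA3 and NAE1, the listed E1 genes that serve NEDD8, were at 0.35 and 0.48. Of 13 cullin-RING parts 4 were enriched and 1 depleted, and of 16 APC/C parts none was enriched and 3 were depleted. The APC/C median was -0.71 ± 0.10. The brightest UBE2S probe lay near it at -0.70, whereas the other UBE2S probes lay lower, at -1.06 and -1.34. Among the HECT ligases 5 of 17 were enriched and 5 depleted, and among the RBR ligases 2 of 10 were enriched and 2 depleted. None of these lists was tested against other genes.

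For 17 UBE2 genes several probes were kept, and in 15 of them all probes had the same sign of log2 IP/T in EV cells. The exceptions were UBE2D3 and UBE2G2. The median span between probes of a gene was 0.47 for the UBE2 genes, against 0.38 over 3458 genes with several kept probes. A span of at least 1 was seen for UBE2D3 and for 16.4% of all such genes, of which 79.8% had 1 sign. Counted by probe, 15 of 52 UBE2 probes were enriched and 8 depleted in EV cells, and 13 and 5 in sponge cells. Genes with several kept probes enter these counts more than once, so the counts do not show a lean of the family. The shares over all kept probes are not given, so these counts allow no comparison with the background.

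**Figure D4:**
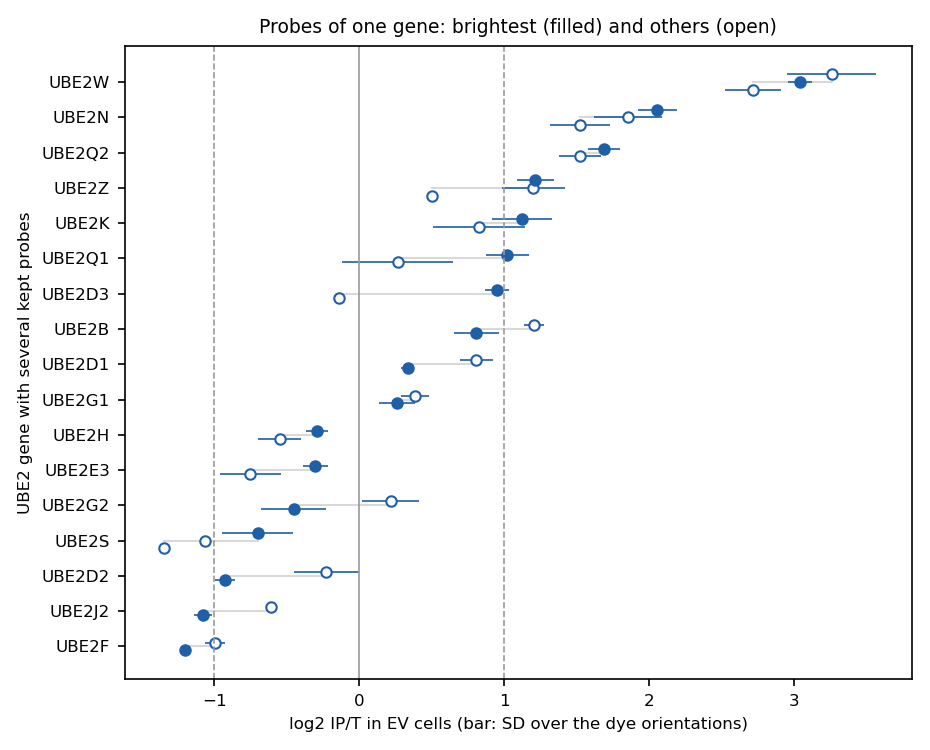
Log2 IP/T in EV cells (horizontal axis) of each kept probe of the 17 UBE2 genes with several kept probes; filled circles are the brightest probe, by which the gene is described, open circles the others, bars the SD over the dye orientations and dashed lines 2-fold. The probes of UBE2W all lie between 2.71 and 3.26, whereas those of UBE2D3 lie at -0.14 and 0.95.

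The second question was whether the UBE2 transcripts left Ago2 when miR-155 was sponged. In its gene set analysis the study saw no clear depletion of miR-155 targets from IP with the sponge in its Hodgkin lymphoma lines. For most of its selected targets, the study also reports a mild fall of IP enrichment with the sponge, in L1236 among others. It proposes that the sponge did not take up all miR-155. How far this limits the changes given here was not tested. In sponge cells 7 of 31 UBE2 genes (22.6%) were enriched, against 17.7% of all genes, and 4 (12.9%) were depleted, against 17.4% of all genes. The 7 enriched genes were those of the EV cells without UBE2Q1, and the 4 depleted ones were UBE2M, UBE2MP1, UBE2O and UBE2F. With normexp correction the sponge counts were 6 and 0 under either normalisation, with UBE2M at -0.99 or -0.81. The sign of log2 IP/T was the same in both populations for 31 of 31 genes, and the values correlated with r = 0.99 across these genes (0.98 across all genes). These genes are not independent, and the correlation is a description.

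At its brightest probe no UBE2 gene was changed by 1.5-fold or more between the populations, with 0 of 31 in T (1.97% of all genes), 0 of 31 in IP (1.01%) and 0 of 31 in IP/T (1.98%). Of the other kept probes, the dimmer one of UBE2Q2 was past 1.5-fold, with a change of -0.70 ± 0.62 in T (-0.26 with Cy3 and -1.13 with Cy5) and of 0.96 ± 0.65 in IP/T; 1 of its 2 sponge T channels was well above background. The change was below 1.2-fold in T for 31 of 31, in IP for 30 of 31 and in IP/T for 25 of 31, against 84.0%, 84.0% and 79.9% of all genes. Between the dyes or orientations, the changes correlated across the 31 genes with r = 0.24 for T, 0.75 for IP and 0.61 for IP/T (0.36, 0.58 and 0.31 across all genes). For IP/T of EV cells itself the orientations correlated with r = 0.99. Across members the change in T thus correlated less between the dyes than IP/T did between orientations. The change in T also varied less over genes, with an SD of 0.125 against 1.21 for IP/T in EV cells. Its median SD over dyes was 0.09, against 0.13 over orientations for IP/T in EV cells, so the lower correlation is no larger disagreement between dyes.

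In T the median change was -0.08 ± 0.09 (sponge minus EV, log2), smaller than its SD. T was lower in sponge cells in both dyes for 15 UBE2 genes and higher in both for 5, against 31.8% and 29.4% of all genes. The median was -0.02 with Cy3 labels and -0.15 with Cy5 labels, and Cy5 is the dye in which sponge T had its lowest detection; the part of that channel in the result was not tested. T of UBE2S, given above, was higher in sponge cells by 0.25 ± 0.01, or 1.19-fold, with both sponge channels above both EV channels. Its other probes gave 0.05 and 0.03. T of UBE2O was higher by 0.20 ± 0.24, within its SD, and that of UBE2F by 0.08 ± 0.04. Lower in sponge cells were UBE2L6 by -0.25 ± 0.02, UBE2Q1 by -0.23 ± 0.06 and UBE2R2 by -0.21 ± 0.02. In UBE2L6, UBE2Q1 and UBE2R2 both sponge channels lay below both EV channels.

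In IP the median change was 0.017 ± 0.004, against 0.004 ± 0.006 over all genes. The ± of a median is the spread between the medians of the 2 dyes. For the UBE2 genes both of these lay above 0.017, so 0.004 is no margin around it. Under some alternatives this median took the other sign. IP was higher in sponge cells in both dyes for 12 genes and lower in both for 8, against 37.7% and 36.4% of all genes. UBE2MP1 was higher by 0.25 ± 0.001, UBE2F by 0.25 ± 0.03 and UBE2T by 0.23 ± 0.05, and for each of them both sponge IP channels lay above both EV channels. UBE2Q1 was lower by -0.31 ± 0.09, UBE2Z by -0.26 ± 0.01 and UBE2W by -0.25 ± 0.03, with both sponge channels below both EV channels. The dimmer UBE2Q1 probe had the opposite sign in IP, at 0.05 ± 0.02. The 3 UBE2W probes were alike in IP, at -0.28, -0.25 and -0.29. Their T was also lower, by -0.31, -0.12 and -0.27, and the change in IP/T of UBE2W was accordingly small, between -0.13 and 0.03.

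In IP/T the median change was 0.09 ± 0.07, against 0.009 ± 0.013 over all genes. The 3 highest values were UBE2MP1 at 0.41 ± 0.09 (1.33-fold), UBE2J2 at 0.37 ± 0.12 (1.29-fold) and UBE2L3 at 0.34 ± 0.12 (1.26-fold), all depleted genes that lay nearer to 0 in sponge cells. At the other end were UBE2G2 at -0.25 ± 0.20, UBE2O at -0.22 ± 0.23 and UBE2D3 at -0.13 ± 0.15. Of these, only UBE2G2 moved by more than its SD, and its dimmer probe had the opposite sign, at 0.18 ± 0.28. Of the 8 genes enriched in EV cells, 6 had a lower IP/T in sponge cells in both orientations and none a higher one; over all genes enriched in EV cells 46.8% were lower. Of the 6 depleted genes, 5 had a higher IP/T in both orientations; over all depleted genes 45.0% were higher. The EV value enters both the choice of these genes and the change, so these counts are a description only. Over the 31 genes, 18 lay nearer to 0 in sponge than in EV cells, and over all genes 56.1% did. The change exceeded its SD in 16 of 31 genes for T, 20 for IP and 18 for IP/T, against 49.9%, 65.1% and 52.5% of all genes.

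**Figure D5:**
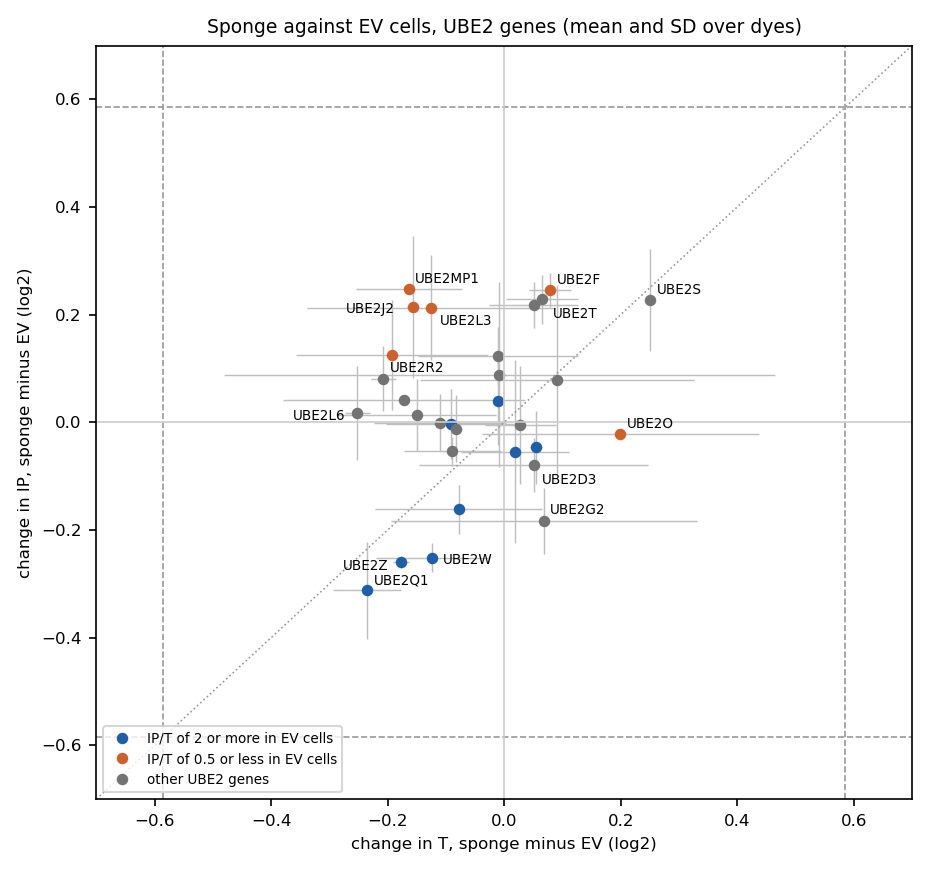
Change between sponge and EV cells (sponge minus EV, log2) in T (horizontal axis) and in IP (vertical axis) for 30 UBE2 genes, with the SD over the dyes as bars; blue points were enriched and orange points depleted 2-fold in EV cells. Dashed lines mark 1.5-fold, which no plotted gene reaches, and the dotted line marks equal change in T and IP; UBE2MP1, UBE2J2 and UBE2L3 lie above it.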

How the data were processed

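Spots of 4 Agilent two-colour arrays were measured. Per the file headers, the authors extracted spot intensity values with Agilent Feature Extraction 10.7.3.1 (the submitters' notes name 10.5.1.1), which subtracts background and corrects for dye. Files of samples that shared an array were identical, and a sample was read from the channel of its dye. The authors also deposited normalised log2 values (22282 probes), which lay within a median distance of 0.00302 of the values used here and served as an alternative.

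Following the study's methods, log2 processed intensity values were quantile normalised over 8 channels, probes well above background in at least 4 channels (25827 of 41000) were retained, and those differing over 2-fold between dyes in an RNA sample were removed (3357), leaving 22470. Control and outlier spots were dropped, and replicate spots averaged. Accessions were named through the RefSeq table of GRCh38.p14, which named 15626 (69.5%) of the kept probes for 11203 genes. A gene was described at its brightest kept probe.

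Groups hold 1 RNA sample each, so no test was run; "enriched" and "depleted" mean 2-fold, and changes were counted at 1.5-fold with the same sign in both dyes. A bound for a dim group came from normexp (offset 50, on median signals, since the files hold no mean signal), loess and Aquantile values. The counting of calls was tested on simulated data, which says nothing about these samples. R 4.3.3, limma 3.58.1, Python 3.11.15, numpy 2.4.6 and pandas 2.3.3 were used.

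Channel values were given for members past 2-fold in either population, the 3 highest and lowest IP/T, the 3 largest changes each way with 1 sign in both dyes, genes whose probes spanned at least 1, and paralogs; other members are given by ratios and counts. The values of 1 member gene are not reported here, though it enters the counts. Members, gene lists and this rule were chosen with earlier results of these data known. Alternatives covered normalisation, background, detection and dye filters, dye, array orientation, probe choice, thresholds and the deposited values.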

Additional observations from a re-analysis of the deposited data

Results flagged for a closer look

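The dimmer probe of UBE2D3 (A_23_P58293) had log2 IP/T values of -0.1427 (EV cells) and 0.1724 (sponge cells). Both dye orientations lay below 0 in EV cells and above 0 in sponge cells. Its T was 12.84 (Cy3) and 12.90 (Cy5) in EV cells and 12.64 and 12.70 in sponge cells, and its IP was 12.74 and 12.72, and 12.87 and 12.82. Both values were small, at 0.91-fold and 1.13-fold, the brighter UBE2D3 probe was above 0 in both populations, and the difference was not tested. Groups of 1 RNA sample in 2 dyes are too small for a search for outlying samples.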

How the results depend on the processing

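Medians and counts of the UBE2 genes were recomputed under the alternatives, which gave 186 values. Of these, 163 stayed within the spread between dyes or within 1.5 times the count. A change of direction was not scored for them. The median change in IP took the other sign under some settings, given below. The median log2 IP/T of all genes in EV cells moved from -0.16 to -0.05 with normexp and quantile normalisation and to -0.01 with normexp, loess and Aquantile, and that of the UBE2 genes from 0.26 to 0.16 and 0.26. With normexp and quantile normalisation 3 UBE2 genes were depleted in EV and 0 in sponge cells, and with loess and Aquantile 2 and 0, with a median change of 0.021 in IP/T and of -0.0097 in IP. The median change in IP was 0.024 with 75th percentile scaling, -0.0045 with the probe of highest IP/T, and 0.037 to 0.042 when either dye was left out. On the arrays with IP in Cy5 alone, the median was 0.24 in sponge cells, its change 0.019 in IP/T and 0.042 in IP; with IP in Cy3 alone the change in IP was 0.037. Without the dye filter UBE2J1 added 1 gene past 1.5-fold in T and 1 in IP. Its sponge T was not well above background, and for T only the uncertain bound of 1.15-fold is given. At 1.5-fold, 14 genes were enriched in EV cells, 14 enriched in sponge cells and 10 depleted in sponge cells. At 4-fold, 2 and 1 were enriched and 0 and 0 depleted. The shares of all genes at these thresholds are not given, so these counts allow no comparison with the background. For these results the cause was not tested. Of 52 UBE2 probes, 50 held the sign of IP/T in EV cells under the 11 to 13 alternatives that kept the probe, and 49 in sponge cells; 32 held that of the change in T, 32 in IP and 24 in IP/T. Leaving out UBE2NL and UBE2MP1, an alternative chosen after seeing the data, gave 7 enriched and 5 depleted of 29 genes in EV cells. Among all genes 18.1% were then enriched and 18.8% depleted. Naming probes by a gene name column was not run, since the scanner files used here hold no such column. No paired analysis was possible because the numbers that groups share are dyes of the same RNA; IP against T over the 2 populations was not tested. The number of arrays limits the precision.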
